A study of Homo sapiens with 15 samples.

Results

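The regions described here are places where the antibody BG4, which binds DNA G-quadruplexes, marked the shared promoter of 2 genes that are transcribed away from each other. A divergent pair was taken as 2 protein-coding genes on opposite strands whose start sites lie at most 1000 bp apart with the minus-strand start to the left. A region belonged to the set when it lay within 1 kb of both start sites. Of the 8955 high-confidence regions deposited for all libraries, 8937 lay on the autosomes or chromosome X, and 830 of these (9.29%, 95% interval 8.70 to 9.91) met the rule. They made up 12.4% of the 6695 regions within 1 kb of any protein-coding start site, and the other 5865 promoter regions served for comparison. No value of the peaks entered the rule. The annotation held 1292 divergent gene pairs of 2508 genes, which merged into 1216 loci, 1145 of them with a single pair.

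The data came from K562, an established human chronic myelogenous leukaemia line, grown asynchronously and untreated in serum-containing medium. Chromatin was precipitated with BG4 and sequenced in 5 libraries, 2 technical libraries of biological replicate 1 (1a and 1c) and 3 of biological replicate 2 (2a, 2b and 2c). All 5 libraries share 1 line, 1 antibody and 1 condition, so the comparisons below are between places in the genome and not between treatments. The 2 K562 input libraries and the 8 bisulfite libraries of HaCaT keratinocytes in the series were not analysed here.

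A G-quadruplex is a stack of guanine squares that a strand with several runs of G can fold into. Divergent, or head-to-head, promoters drive transcription outward in both directions from a short shared stretch of DNA. They usually lie in CpG islands, often lack a TATA box, and are common among genes for DNA repair, mitochondria and other functions that all cells need. In such a promoter the DNA between the start sites is upstream of both genes, and each strand is the coding strand of 1 of them.

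The clearest cases are regions that lie wholly between the 2 start sites and touch no annotated exon. Their sequence is promoter DNA of both genes, but overlap with introns of other transcripts was not checked. Of these, 13 were at most 300 bases long and present in all 5 libraries, and 7 held a canonical motif, here 4 runs of at least 3 G on 1 strand with loops of 1 to 7 bases. The 3 best ranked by fold enrichment with a motif and the 2 best ranked without one are printed in full from the GRCh37 plus strand, 5′ to 3′. NPAT, a regulator of histone genes, and ATM, the kinase of the DNA double-strand break response, start 429 bp apart, and their region spans chr11:108093463-108093723. EXOSC5, a subunit of the RNA exosome, and BCKDHA, a subunit of the branched-chain keto acid dehydrogenase, start 459 bp apart around chr19:41903328-41903500. CDCA3, a mitotic regulator, and USP5, a deubiquitinase, start 862 bp apart and have their region at chr12:6961104-6961306. Capitals mark the motif, written as C runs where the G runs are on the minus strand.
NPAT/ATM: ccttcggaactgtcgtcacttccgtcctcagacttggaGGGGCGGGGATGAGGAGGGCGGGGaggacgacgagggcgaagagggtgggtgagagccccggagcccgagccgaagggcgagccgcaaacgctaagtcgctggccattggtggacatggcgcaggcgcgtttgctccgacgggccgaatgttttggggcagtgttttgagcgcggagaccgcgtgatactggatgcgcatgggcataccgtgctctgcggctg
EXOSC5/BCKDHA: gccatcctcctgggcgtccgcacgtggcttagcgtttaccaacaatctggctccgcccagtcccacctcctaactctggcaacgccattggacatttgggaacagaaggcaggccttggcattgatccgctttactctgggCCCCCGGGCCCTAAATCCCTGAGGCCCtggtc
CDCA3/USP5: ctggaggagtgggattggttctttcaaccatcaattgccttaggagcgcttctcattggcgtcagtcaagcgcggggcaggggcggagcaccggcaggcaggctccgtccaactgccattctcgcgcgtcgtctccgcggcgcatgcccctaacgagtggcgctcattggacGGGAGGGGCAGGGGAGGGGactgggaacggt

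The motif of NPAT/ATM had its G runs on the plus strand, the coding strand of ATM. That of EXOSC5/BCKDHA had them on the minus strand, the coding strand of EXOSC5. In CDCA3/USP5 the motif ended close to the right edge of the region and 107 bp separated the region's middle from the USP5 start. Fold enrichment in libraries 1a, 1c, 2a, 2b and 2c was 7.23, 9.26, 6.70, 7.76 and 6.66 at NPAT/ATM. It was 10.4, 7.05, 9.30, 5.86 and 6.07 at EXOSC5/BCKDHA and 7.53, 9.61, 7.30, 5.84 and 6.79 at CDCA3/USP5. They lay between the 40.3rd and the 86.8th percentile of their own lists. Fold enrichment here is the authors' ratio of signal at a peak's summit to the local background. The sources used here do not say which library that background was taken from. Raw values of different libraries are printed side by side without a comparison of their size.

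Regions without a canonical motif are shown next, because they were the larger part of the set. PPP1R10, a regulatory subunit of protein phosphatase 1, and MRPS18B, a mitochondrial ribosomal protein, start 597 bp apart, with the region at chr6:30585104-30585335. TUFM, the mitochondrial translation elongation factor, and SH2B1, a signalling adaptor, start 341 bp apart, with the region at chr16:28857672-28857919. Capitals mark every run of at least 3 G or 3 C.
PPP1R10/MRPS18B: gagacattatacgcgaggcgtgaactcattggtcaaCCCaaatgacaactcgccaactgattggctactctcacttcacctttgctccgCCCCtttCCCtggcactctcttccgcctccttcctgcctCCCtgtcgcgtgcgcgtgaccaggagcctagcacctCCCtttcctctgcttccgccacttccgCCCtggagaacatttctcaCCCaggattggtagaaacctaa
TUFM/SH2B1: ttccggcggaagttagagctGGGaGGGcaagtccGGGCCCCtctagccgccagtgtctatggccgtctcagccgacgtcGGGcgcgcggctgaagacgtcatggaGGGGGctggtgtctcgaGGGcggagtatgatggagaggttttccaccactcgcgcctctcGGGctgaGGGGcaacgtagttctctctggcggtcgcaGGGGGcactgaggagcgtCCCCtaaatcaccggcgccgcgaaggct

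The first of these held 7 such runs, all of C and spread over 232 bp, and the second 11 stretches of mostly G runs over 248 bp, too far apart for a canonical motif. Their fold enrichment in the same library order was 7.47, 6.20, 6.88, 7.32 and 6.17 at PPP1R10/MRPS18B, and 9.04, 5.64, 11, 8.87 and 7.75 at TUFM/SH2B1. These values overlapped those of the 3 regions with a motif. Both regions were called in every library without the canonical sequence.

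The peak lists held between 8059 (2a) and 12495 (1a) peaks. The number of reads per library is unknown. Peak names in the lists of 2a and 2c carry each other's letter, and the sample labels were followed, so the 2 may be swapped. A list rebuilt from stretches covered by peaks of at least 3 of the 5 libraries was identical to the deposited one in 8955 of 8955 regions. Of the 830 regions at divergent pairs, between 687 (2a) and 791 (2c) had a peak in a given library.

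At least 1 region was found at 730 of 1216 divergent loci (60.0%, 57.3 to 62.8). With regions present in all 5 libraries only, the share was 39.8%, and with peaks of −log10 p of 10 or more it was 42.2%. By number, 637 loci had 1 region, 86 had 2 and 7 had 3. Regions of 1 locus can be parts of 1 broad peak in a library and were not merged. Counted by gene, 1548 of the 2508 genes of divergent pairs (61.7%, 59.8 to 63.6) had a region within 1 kb of a start site, against 5249 of 17239 other protein-coding genes (30.4%, 29.8 to 31.1). Over all 19747 protein-coding genes the share was 34.4%. The difference was 31.3 percentage points (29.2 to 33.3).

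The difference was present in each library. Genes of pairs with a peak made up 66.1%, 57.7%, 57.8%, 62.5% and 66.8% in libraries 1a, 1c, 2a, 2b and 2c, and other genes 33.9%, 28.4%, 27.7%, 31.0% and 34.5% in the same order. The ranges of the 2 kinds of gene did not overlap. With technical libraries averaged first, the difference was 31.0 ± 0.413 points (SD, n = 2 biological replicates), and pair genes had a peak 2.00 ± 0.0167 times as often. An exact sign-flip permutation test over the 5 libraries gave a two-sided p of 0.0625, the smallest that 5 libraries allow. Any 5 differences of the same sign give this p, whatever their spread, so it records only that the 5 signs agreed. Libraries of 1 biological replicate are technical repeats, and the labels do not say whether the 2 biological replicates were separate cultures.

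The 95% intervals of shares in this text are Wilson intervals and those of differences Newcombe intervals. Intervals of weighted differences use a normal approximation. All cover counting error only. The 2 genes of a pair usually share their region, while the intervals treat genes as independent, so gene-level intervals are too narrow. The window around a pair gene also holds the start site of its partner, whose signal cannot be told apart from its own.

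**Figure D1:**
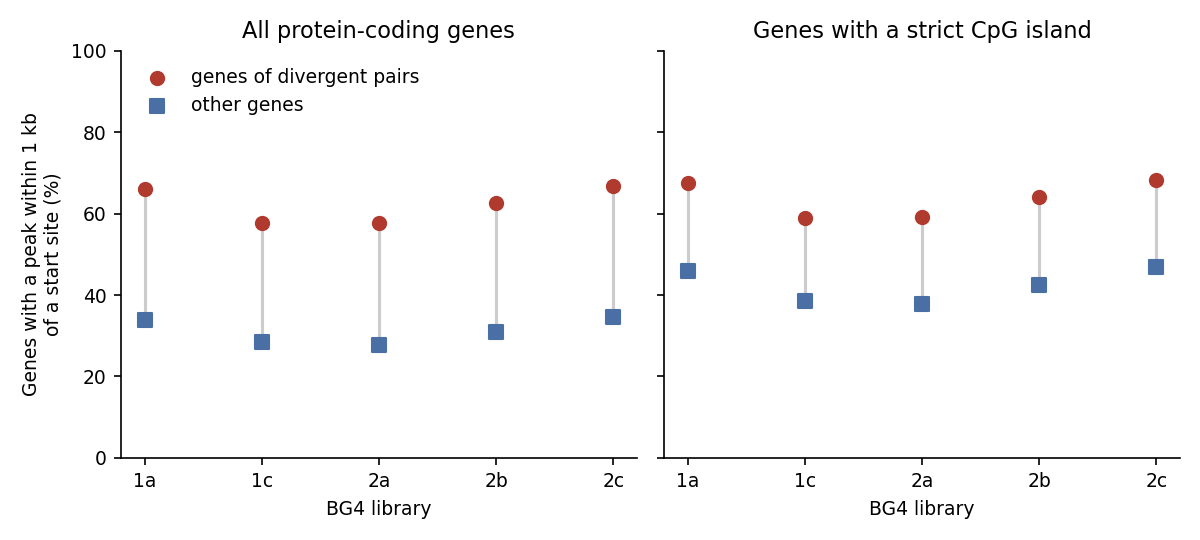
Percent of genes with a BG4 peak within 1 kb of a start site, per library (x axis), for genes of divergent pairs (circles) and other protein-coding genes (squares). The left panel holds all genes and the right panel genes with a strict CpG island, where the gap between the 2 kinds narrows to between 20.5 and 21.6 points but stays in the same direction in all 5 libraries.

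CpG islands were more frequent at these genes, and the difference was smaller among genes that had one. A strict island (windows of 500 bp, GC share 0.55 or more, CpG ratio of observed to expected 0.65 or more) lay at 97.4% of pair genes and 71.5% of other genes. Among genes with such an island, 63.2% of 2442 pair genes and 41.6% of 12332 other genes had a region, a difference of 21.6 points (19.5 to 23.7). Per biological replicate this difference was 21.3 ± 0.295 points (SD, n = 2). The exact sign-flip p over 5 libraries was again the smallest possible, 0.0625 (two-sided).

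The share of genes with a region was higher at higher promoter GC content, taken over 500 bp to either side of the canonical start, in both kinds of gene. A region counted within 1 kb of any start site of the gene, so it may lie outside the stretch whose GC content was taken. The GC classes therefore do not always describe the DNA under the region. Below 45% GC, 13 of 42 pair genes (31.0%, 19.1 to 46.0) had a region but only 23 of 1943 other genes (1.18%). Between 50% and 55% GC the shares were 37.7% and 11.9%, and from 70% GC upward 75.1% and 48.8%. In all 7 GC classes the interval of the difference lay above 0, with differences from 25.5 to 35.7 points. Other genes weighted to the GC classes of pair genes had a region in 35.0%, a difference of 26.8 points (24.8 to 28.8). Genes with a single annotated start site and a strict island gave 59.0% against 34.9%, a difference of 24.1 points (19.6 to 28.5). These last 2 comparisons were chosen after the data had been seen.

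**Figure D2:**
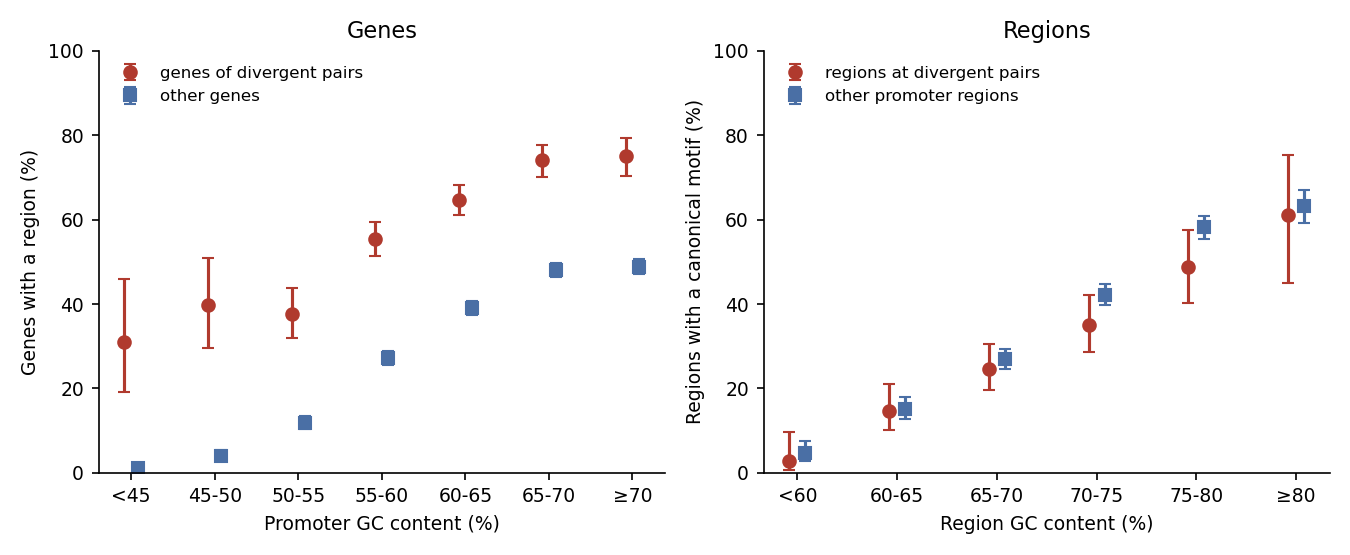
Left, percent of genes with a region near any start site, by GC class around the canonical start, for genes of divergent pairs (circles) and other genes (squares). Right, percent of regions with a canonical motif by region GC class for regions at divergent pairs and other promoter regions; bars are 95% Wilson intervals. Pair genes lie higher in every class on the left, from 31.0% against 1.18% in the lowest class, and regions at pairs have the lower share in every class on the right, where the interval of the difference includes 0 in 5 of the 6 classes.

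Well-known head-to-head pairs mostly carried regions. In a list of 46 genes of textbook pairs, 42 met the definition used here, at 21 loci, and 36 of these (85.7%, 72.2 to 93.3) had one. Over all 2508 genes of divergent pairs 59.7% had a region near both starts, and the shares of the lists below are to be read against it. HSPD1/HSPE1 (the mitochondrial chaperonin and its cofactor), GART/SON, PPAT/PAICS (both purine synthesis), TAP1/PSMB9 (antigen processing), SURF1/SURF2, MRPS12/SARS2, MUTYH/TOE1 and NTHL1/TSC2 were among them. At COL4A1/COL4A2, which encode collagen IV chains of basement membrane, at BRCA2/ZAR1L and at FEN1/TMEM258 no library had a peak near both start sites. BRCA2 is needed for homologous recombination and FEN1 removes flaps from Okazaki fragments.

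Of the 6 functional lists, DNA repair and replication had the highest share of genes with a region. Of 35 such genes in divergent pairs 28 (80%, 64.1 to 90.0) had a region, against 34 of 49 (69.4%) that are not in pairs, a difference of 10.6 points with an interval from -8.77 to 27.7. XRCC3 (recombination), TP53BP1 (end-joining choice), POLE (leading-strand polymerase) and ATM were the best ranked. Besides BRCA2 and FEN1, the genes without a region were LIG4, ORC1, RAD51C, RAD51D and TOP3A. Of those, ORC1 and TOP3A had a peak near both start sites in 2 libraries.

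For mitochondrial gene expression and import the counts were 14 of 24 genes in pairs (58.3%) and 28 of 41 others (68.3%). TFB2M, a mitochondrial transcription factor, MRPS18B, MRPL18 and the protease LONP1 led the list. GFM2, a ribosome recycling factor, had none. Oxidative phosphorylation gave 12 of 23 in pairs (52.2%) and 22 of 35 others (62.9%). SDHA (complex II), UQCRH and UQCRQ (complex III) and NDUFB9 (complex I) had regions in all 5 libraries, and COX11 and ATP5F1A had peaks in 2 libraries but no region.

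RNA processing and splicing gave 18 of 28 in pairs (64.3%) and 26 of 42 others (61.9%), with SON and SRSF2, which act in splicing, SNRPD3, a core protein of spliceosomal RNPs, and CPSF4, a cleavage and polyadenylation factor, ranked first. CPSF2 and EXOSC1 had no region. Among cell cycle genes 8 of 16 in pairs had a region near both starts and 9 (56.2%) a region near their own, against 28 of 56 others (50%). ANAPC2 and ANAPC11 of the anaphase-promoting complex, the kinase AURKA and the CDK inhibitor CDKN2C were the examples, while CCND3 and KIF11 had none. Proteasome and ubiquitin genes gave 7 of 16 (43.8%) and 37 of 53 (69.8%), a difference of -26.1 points with an interval from -49.3 to 0.593. PSMA1, PSMD13, UBE2D3 and SKP2 had regions in all 5 libraries, and the cullins CUL4A and CUL4B had none.

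Within these 6 functional lists, membership in a pair went with no difference that passed. Counting each gene once, 88 of 142 genes in pairs (62.0%, 53.8 to 69.5) and 175 of 276 genes outside pairs (63.4%, 57.6 to 68.9) had a region, a difference of -1.43 points (-11.3 to 8.12). The interval does not overlap that of the difference over all genes, 29.2 to 33.3, and the list genes outside pairs had regions more often than other genes in general, 63.4% against 30.4%. The lists were not drawn at random, the pooling was chosen after the single lists had been seen, and these genes also belong to the genome-wide counts.

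Replication-dependent core histone genes stood at the other end. Many H2A and H2B genes face each other across a short promoter, and 20 core histone genes formed 10 divergent loci. None of the 20 had a region (0%, interval up to 16.1%), and 1 of the 34 core histone genes outside pairs had one (2.94%). At H2AC11/H2BC11 3 libraries had a peak near both start sites, but no region near both was listed, and at H2AC12/H2BC12 2 had one. At H2AC1/H2BC1 no library had a peak near both start sites. Core histone genes have near-identical copies, and these counts are uncertain because the treatment of multi-mapping reads is not given in the sources used here.

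The strongest regions were ranked by the lowest percentile of fold enrichment that a region reached in any library. BLVRB/SPTBN4 led, with 15.7, 15.1, 17.5, 12.4 and 12.9 in libraries 1a to 2c, all at or above the 98.6th percentile of their list. BLVRB encodes a biliverdin reductase of haem breakdown and SPTBN4 a spectrin. This 545 bp region (chr19:40971571-40972115) covered most of the 477 bp between the start sites and the first bases of the BLVRB transcript, and it held no canonical motif. METTL8/DCAF17 came next with 16.8, 13.7, 13.8, 12.4 and 14.1 in a 530 bp region (chr2:172290346-172290875) over both starts, also without a motif. METTL8 modifies mitochondrial tRNA and DCAF17 is a substrate receptor of cullin ligases.

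DCAKD/NMT1 had 15.1, 14.6, 11.8, 11.3 and 11.9 (chr17:43128800-43129093). NMT1 attaches myristate to proteins, the start sites lie 13 bp apart, and the region held a motif on each strand. At CENPX/LRRC45, a centromere and a centrosome gene, the values were 15.9, 18.6, 17.7, 13.7 and 11 (chr17:79980686-79981193), and both motifs had their G runs on the minus strand, the coding strand of CENPX.

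The first 10 also held NAIF1/SLC25A25, C17orf67/DGKE, ZNF891/ZNF10, RETREG3/TUBG1 and SURF4/STKLD1, with fold enrichment between 10.2 and 17. TUBG1 encodes gamma-tubulin, SURF4 a cargo receptor of the endoplasmic reticulum and SLC25A25 a mitochondrial carrier. Of the 10 regions 4 held a canonical motif, and 9 had their middle between the start sites, DCAKD/NMT1 being the exception.

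**Figure D3:**
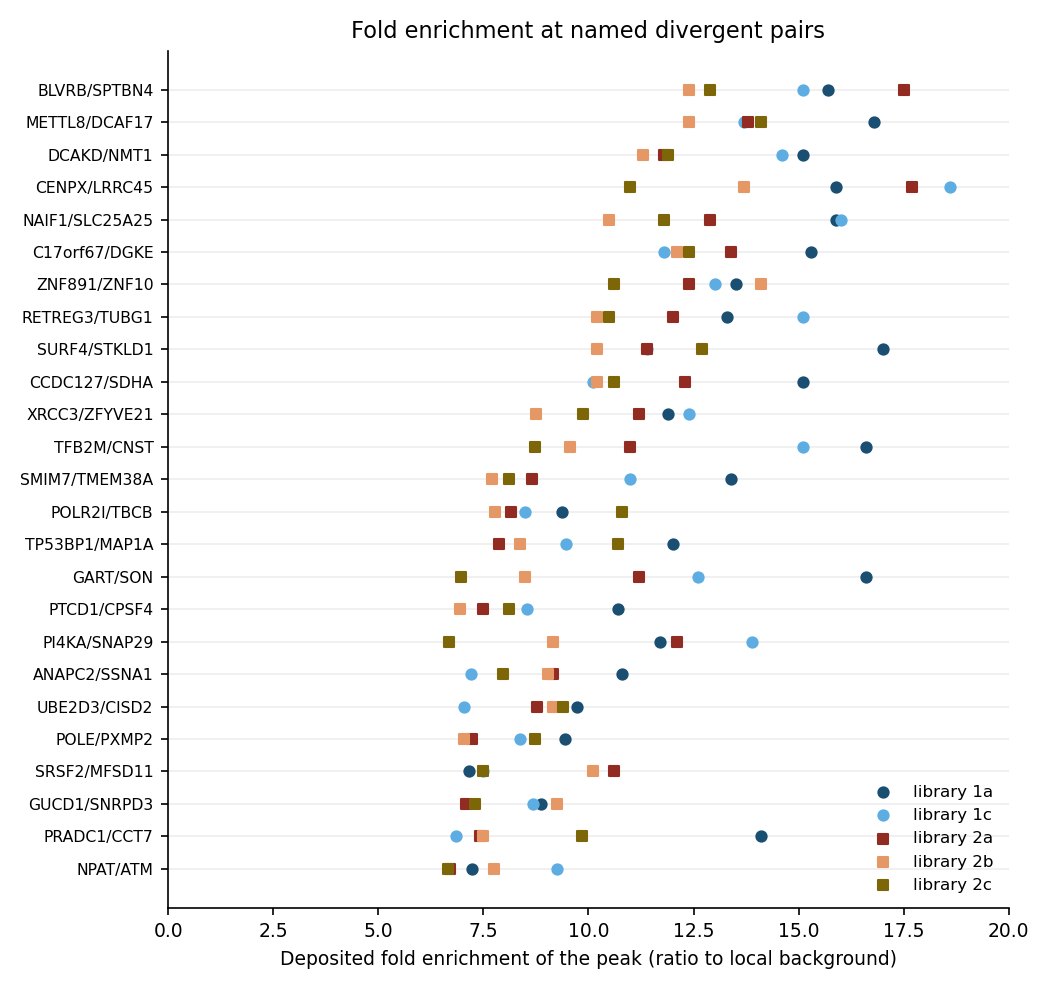
Deposited fold enrichment (x axis, linear, ratio of summit signal to local background) of regions present in all 5 libraries at named divergent pairs, from the highest to lower ranked; circles are the 2 libraries of replicate 1 and squares the 3 of replicate 2. The first 9 loci shown lie between 10.2 and 18.6, and GART/SON spreads from 6.96 in 2c to 16.6 in 1a.

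Regions centred on the DNA between the start sites. The middle of 533 of 830 regions (64.2%, 60.9 to 67.4) lay between them, while that stretch took up on average 13.1% of the window in which a region could meet the rule. The rest were split evenly, 150 inside the minus-strand gene and 147 inside the plus-strand gene. The median distance of a region's middle from the midpoint of the pair was 53.2 bp, with quartiles of 22.5 and 208 bp. Of all members 331 (39.9%) covered both start sites, 139 only that of the minus-strand gene, 138 only that of the plus-strand gene, 222 (26.7%) neither, and 74 (8.92%) lay wholly between. Start sites of a pair were taken as the combination with the smallest gap; with only the Ensembl canonical start sites the share between rose to 84.4%.

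Other promoters also have their regions upstream. At divergent pairs the middle lay upstream of the nearest start site in 77.8% of regions, against 83.6% of other promoter regions, a difference of -5.82 points (-8.91 to -2.95). At a pair, DNA past the partner's start site counts as downstream of the partner, so the upstream side is short. The 2 shares are thus not of like windows, and how far this shifts them was not tested. Aligned on the canonical start, coverage by regions was highest 75 bp upstream both for pair genes (45.2% of 2503 genes) and for other genes with a strict island (33.0% of 12251). At 500 bp upstream it was 5.11% and 1.91%, and at 100 bp downstream 5.23% and 3.73%. The maximum lay at the same distance in both kinds of gene, and it was 45.2% in one and 33.0% in the other.

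**Figure D4:**
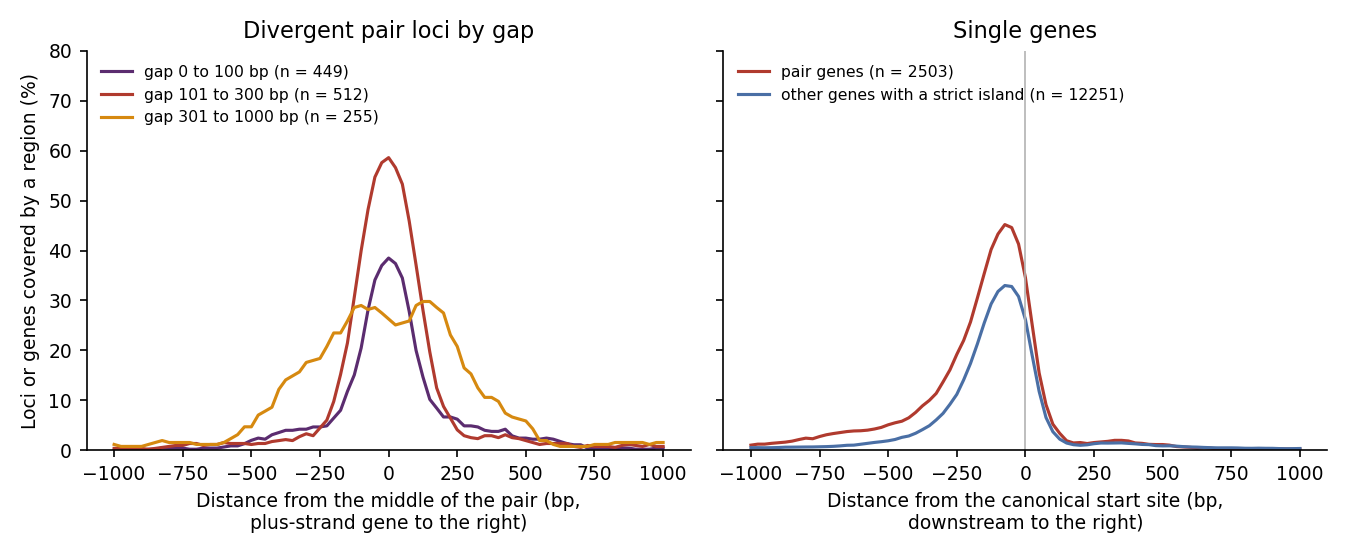
Percent of loci or genes covered by a high-confidence region at each distance (bp). Left, divergent loci aligned on the midpoint of the pair in 3 gap classes: a single summit of 38.5% or 58.6% at the midpoint for gaps to 300 bp, and 2 shoulders of 29.0% and 29.8% for wider gaps; right, single genes aligned on the canonical start site, both highest 75 bp upstream.

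Loci with the shortest gaps had regions least often. Loci with start sites at most 100 bp apart had a region in 51.4% (231 of 449), and those farther apart in 65.1% (499 of 767), a difference of 13.6 points (7.87 to 19.3). The share was 46.5% for gaps to 50 bp and 54.9% up to 100 bp, and it lay between 62.7% and 67.4% in the 5 wider classes, whose intervals overlap each other. The median gap was 150 bp at loci with a region and 110 bp at loci without. Around gaps over 100 and up to 300 bp, 58.6% of the 512 loci were covered at the midpoint. The 255 loci with wider gaps were covered in 26.3% at the midpoint and in 29.0% at 100 bp to either side, with the highest value, 29.8%, 125 bp toward the plus-strand gene.

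The widest gap class, over 500 bp, had the most loci with 2 or more regions, 20 of 72 loci with any (27.8%). In the other classes it was 7.59% to 16.3%. The share of regions with their middle between the starts went from 12.5% for gaps to 50 bp to 87.5% for gaps over 500 bp, and exceeded the share of the reachable window in every class, 1.31% and 49.0% in those 2. Just inside the 1000 bp limit of the definition, in the last 100 bp, 12 of 18 gene pairs had a region near both starts, and in the 100 bp beyond it 7 of 13 did.

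**Figure D5:**
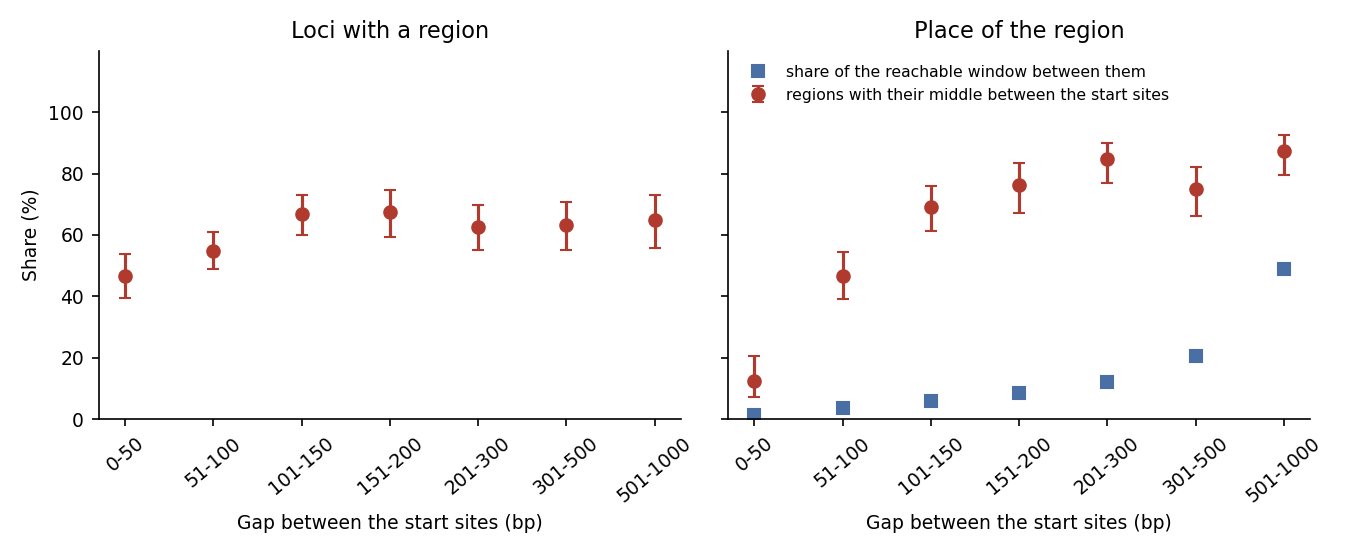
By gap between the start sites (bp, 7 classes), left, percent of divergent loci with a region and, right, percent of regions whose middle lies between the start sites (circles) beside the percent of the reachable window that lies there (squares); bars are 95% Wilson intervals. The share of loci with a region is lowest for gaps to 50 bp, 46.5%, and the circles lie above the squares in every class.

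Examples at the ends of the range show both forms. TMED5, a cargo protein of the early secretory pathway, and CCDC18 start 2 bp apart, and their 334 bp region had its middle 182 bp inside CCDC18. Its values were 7.10, 6.39, 5.33, 8.20 and 5.07 in libraries 1a to 2c, between the 19th and the 81.2nd percentile of their lists, and it held a motif with G on the plus strand, the coding strand of CCDC18. PRADC1/CCT7, where CCT7 is a subunit of the cytosolic chaperonin, has the longest gap with a region, 997 bp. There the region covered the PRADC1 start, and its middle lay 146 bp from that start and 850 bp from the CCT7 start. Fold enrichment was 14.1 in 1a and 6.86 to 9.84 in the other libraries. SMIM7/TMEM38A, with a gap of 995 bp, had the middle of its region 120 bp from the SMIM7 start. The widest region, 751 bp over MBOAT7/TSEN34, ranged from 3.69 in 2b to 12 in 1a, and PI4KA/SNAP29 (734 bp) from 6.69 in 2c to 13.9 in 1c.

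Loci without a region were mostly without peaks. Of the 486, 274 (56.4%) had no peak near both starts in any library, 99 had one in 1 library, 96 in 2, 13 in 3 and 4 in 4. Peaks in 3 or 4 libraries give no region where they do not share a stretch in 3 of them or where the shared stretch lies farther than 1 kb from a start. The stretches from 1 kb left of the minus-strand start to 1 kb right of the plus-strand start had at loci with a region a median GC content of 57.6%, against 54.4% at loci without. A canonical motif anywhere in that window was found at 78.6% (75.5 to 81.4) and 63.2% (58.8 to 67.3), and a strict island at 99.7% and 92.0%.

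No difference in recurrence from other promoters was detectable beyond counting error. A peak in all 5 libraries was found at 512 of 830 regions (61.7%), at 58.6% of other promoter regions and at 55.0% of all regions, and the difference between the first 2 was 3.10 points with an interval that includes 0 (-0.479 to 6.59). It was -1.45 (-5.86 to 3.01) when peaks needed a −log10 p of 10 or more. Within the set, regions with their middle between the starts were in all 5 libraries in 66.0% and those inside either gene in 53.9%, a difference of 12.2 points (5.23 to 19.1). The regions in between were also wider, with a median of 230 bp against 198 bp in the minus-strand gene and 216 bp in the plus-strand gene.

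Median fold enrichment of the regions was 8.11, 7.17, 7.14, 6.64 and 6.61 in the libraries in that order. For other promoter regions it was 8.11, 7.37, 7.15, 6.64 and 6.73. The median percentile within each list was lower than at other promoters in 3 libraries and equal in 2, on average by -1.10 ± 0.71 percentile points (SD, n = 2; exact sign-flip p = 0.250, two-sided). With 2 libraries equal, 0.250 is the smallest p that this test allows. It records only that the signs of the other 3 agreed. The average was -2.67 without 1a, -1.15 without 1c, -2.28 without 2a, -2.21 without 2b and -2.40 without 2c. It was -2.68 with regions in all 5 libraries only and -0.563 with Ensembl canonical start sites only. Only 20 regions (2.41%) were in replicate 2 alone, against 2.86% of other promoter regions. The highest of these were PPP1R3D/FAM217B, a phosphatase targeting subunit and its neighbour, at 6.30, 7.08 and 7.67 in 2a, 2b and 2c, then TRIM23/TRAPPC13 and MRPS27/PTCD2.

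Regions at divergent pairs held the canonical motif less often. It was found in 236 of 830 (28.4%, 25.5 to 31.6), in 2261 of 5865 other promoter regions (38.6%) and in 34.7% of all regions, a difference from other promoters of -10.1 points (-13.3 to -6.72). The regions were less GC-rich, with a median of 68.8% against 71.4%, and slightly wider, 221 against 214 bp. Weighted to the same GC and width classes, the difference was -5.29 points (-8.33 to -2.25), a comparison added after the data had been seen. When runs of 2 G were accepted the difference was -0.849 points, with an interval that includes 0 (-2.86 to 0.808). That looser motif is more common by construction, and its shares are not given here. The value therefore cannot show whether the difference is limited to longer runs. By side, the difference was -9.26 points upstream and -12.2 points downstream of the nearest start site, and both intervals lay below 0.

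Most canonical motifs near these start sites lay outside the regions. The windows of loci with a region held 1663 canonical motifs, of which 332 (20%, 18.1 to 22.0) lay inside a region, while regions covered 12.1% of the window bases. Of the regions with their middle between the start sites, 85 held a motif with G on the plus strand and 85 one with G on the minus strand, and 11 of them are in both counts. Outside them it lay more often on the coding strand of the gene it was in, 45 of 72 (62.5%, 51.0 to 72.8).

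Downstream of a start site the regions were richer in G than in C on the coding strand. The excess of G over C, as a percent of both, averaged 9.02% (SD 18.5) over the 184 regions downstream of their nearest start and was above 0 in 68.5%. In other promoter regions downstream it averaged 4.41% (SD 19.5) and was above 0 in 58.9%, a difference of 9.56 points (1.89 to 16.6). Upstream the averages were 2.81% and 1.61%. For regions between the starts, read on the plus strand, it was -0.197% (SD 16.3), so neither strand was favoured on average.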

How the data were processed

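BG4 chromatin immunoprecipitation sequencing of K562 was analysed from 5 deposited peak lists, 1 per library, and 1 deposited list of high-confidence regions, given as positions alone. Peaks were called with MACS2 on hg19, per the submitters' processing notes; its version, the aligner and the control are not given in the sources used here. The deposited fold enrichment is the ratio of summit signal to local background, the deposited −log10 p and −log10 q belong to the summit, and the deposited score is the −log10 p times 10, cut to a whole number. The score was not analysed further. The fold values are the authors' and were compared between kinds of region within a list, as percentiles. The check of each library against the other 4 used the raw values. Read depth is unknown, so precision is given by counting intervals alone. No per-sample columns were left unmapped (0).

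Start sites were those of GENCODE release 44 basic protein-coding transcripts on GRCh37, and sequences come from that assembly. Motifs were counted on both strands, wholly inside a region; G runs may be longer than 3 and loops may hold G. Counts and intervals were computed in Python 3.11.15 with numpy 2.4.6, pandas 2.3.3 and scipy 1.17.1, with 95% Wilson and Newcombe intervals (a normal approximation for weighted differences) and exact sign-flip permutation tests over libraries. The scripts were tested on simulated data. Alternatives were presence in all libraries, a stricter peak threshold, each library left out, other gaps, windows, start sites, motifs and islands.

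The members, the gene lists and the tests were chosen with earlier results of these data known. The genes named follow a rule: the 10 loci ranked first by their lowest percentile over the libraries, in each list up to 4 best ranked genes and, alphabetically, the first 2 lacking a region, the 3 widest regions, the 3 highest in replicate 2 alone and the 2 shortest and longest gaps. The textbook pairs with a region, the repair genes LIG4, ORC1, RAD51C, RAD51D and TOP3A, and H2AC12/H2BC12 fall outside it and were named after their values were seen. The rule took 8 sequences, of which 5 are printed. Of 59 core histone symbols 54 were matched, and every symbol of the other lists was matched. Some items that the rule took are not reported here.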

Additional observations from a re-analysis of the deposited data

Results flagged for a closer look

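In groups of 5 libraries, a library was singled out when it stood far from the other 4 for the range of the group. Of 56 groups tested 2 were picked, and chance picks about 1 in 20. The difference between pair genes and other genes with a strict CpG island was 20.5 points in library 1c and 21.3 to 21.6 in the others. At OARD1/NFYA, where NFYA encodes a subunit of the CCAAT-binding factor, fold enrichment was 4.75 in library 2b and 11.4 to 14.1 in the others, in a 670 bp region over the NFYA start.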

How the results depend on the processing

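Of 86 alternative values 52 stayed within the interval of the value reported, 34 moved outside it and 0 reversed a called direction. With regions in all 5 libraries only, loci with a region fell to 39.8%, the gene difference to 21.9 points and to 15.7 with a strict island, the fold percentile difference was -2.68, the motif difference -14.5 and the share with their middle between the starts 68.8%. With peaks of −log10 p of 10 or more these were 42.2% of loci, 22.0 points, 14.9 points and 67.8%, and the difference in presence in all 5 libraries was -1.45. Leaving out each library in turn, with 3 of the 4 others required, gave 52.7% to 56.2% of loci, gene differences of 27.9 to 29.6 points, 19.4 to 20.5 with a strict island, and percentile differences of -2.67 (without 1a) to -1.15 (without 1c), all more than 1.5 times the reported -1.10 except the last. A 500 bp window gave 57.0% of loci. Canonical start sites gave 62.8% of loci and 84.4% between, and adding overlapping pairs 57.6% between. Motif runs of 2 gave -0.849 and looser islands 25.5 points. Chosen after seeing the data, weighting by GC and width gave -5.29 for the motif, weighting by promoter GC 26.8 points and genes with 1 start site 24.1 points. Requiring more libraries or stricter peaks leaves fewer regions by construction. In an overlapping pair the minus-strand start lies to the right, so by construction no region's middle counts as between. The cause of the other shifts was not tested. No paired analysis was possible because all BG4 libraries form 1 group and none can be paired with a sample of another group; the sign flips compare kinds of gene or region within each library. Depth is unknown, so a locus without a region may hold a signal below the calling threshold. The annotation and its basic transcript set decide which genes count as divergent, and partner genes share their regions.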

Other observations

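The share of loci with a region ranged widely over chromosomes. On chromosome X 12 of 37 divergent loci had one (32.4%, 19.6 to 48.5) and on chromosome 13 6 of 19 (31.6%, 15.4 to 54.0), against 60.0% overall. The highest shares were 6 of 8 on chromosome 21 (75%, 40.9 to 92.9), 29 of 39 on chromosome 7 (74.4%, 58.9 to 85.4) and 28 of 38 on chromosome 8 (73.7%, 58.0 to 85.0). These chromosomes were picked from 23 after all had been seen, with no test. Copy number, which differs from normal in K562, was not measured here. Of the 830 regions 34 (4.10%) lay near more than 1 divergent gene pair.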
